A study of Mus musculus with 2 samples.

Results

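A set of 10 genes of the bone morphogenetic protein (BMP) pathway, out of 27998 genes in the tables, was followed through single cells of mouse lungs after injury with bleomycin, which induces fibrosis. The 10 genes were the DNA-binding inhibitors Id1, Id2, Id3 and Id4, the inhibitory SMADs Smad6 and Smad7, the pseudoreceptor Bambi, the ligands Bmp4 and Bmp5 and the antagonist Chrdl1. They were taken by symbol, and all 10 were found. In GENCODE M21 (GRCm38), Id1 is annotated on chromosome 2 from 152736251 to 152737410, Id3 on chromosome 4 from 136143497 to 136145755, and Chrdl1 on chromosome X from 143285674 to 143394262. The set was drawn up and its genes chosen by their role and by values of these 2 libraries, CPM and share of positive cells per cell type, so the values below are a description of these libraries and carry no test. C57Bl6 mice were given bleomycin on day 1 and then navitoclax, or vehicle, from day 15 to day 20, and lungs were taken 21 days after injury. Navitoclax (ABT-263) binds and blocks pro-survival members of the BCL-2 family. Epithelial and stromal cells were flow-sorted and combined in equal numbers, so their ratio carries no information. The navitoclax group and the vehicle group had 1 library each, both from injured lungs, and no uninjured lung was part of this comparison.

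BMP ligands bind paired type I and type II serine/threonine kinase receptors, which phosphorylate SMAD1, SMAD5 and SMAD9. With SMAD4 these enter the nucleus and switch on direct targets, among them Id1, Id2, Id3 and the feedback inhibitors Smad6 and Smad7. ID proteins carry a helix-loop-helix but no DNA-binding region, and hold E proteins such as TCF3, TCF4 and TCF12 away from DNA. In the lung, BMP4 is a regulator of branching in development and BMP signalling affects the growth and differentiation of alveolar type II cells in the adult.

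The navitoclax library held 98517048 UMIs (unique molecular identifiers, 1 for each captured transcript copy) in 8064 barcodes, and the vehicle library 97958947 UMIs in 8784 barcodes. After filters and removal of doublets 6228 navitoclax and 7174 vehicle cells were kept, of which 5589 navitoclax and 6543 vehicle cells fell into 12 classes, named "-like" after marker genes, or by number for a stromal cluster that no marker list fitted. The libraries shared 20 barcode sequences. Most names stood on clear markers, such as Foxj1 at 871 CPM (counts per 1e6 UMIs of the class) in navitoclax and 811 CPM in vehicle ciliated-like cells, against at most 61.5 CPM in any other class. Some were weaker. Fibrotic-like fibroblasts were led by Spp1, Lpl, Mdk, Ltbp2 and Sfrp1, but their Cthrc1 level was only 9.91 CPM in the navitoclax and 15.3 CPM in the vehicle library, below the 22.7 CPM of another class. Transitional-like cells, led by Sprr1a, Areg, Lgals3 and Sfn, had a higher score for type II markers (0.652) than for transitional ones (0.583), and their Krt8 level, 600 CPM in the navitoclax and 620 CPM in the vehicle library, was not the highest of the classes. Endothelial cells, a known site of Id1 and Id3 expression, were nearly absent from the 10 larger classes: the 10 endothelial markers summed to at least 3.82 CPM and at most 170.2 CPM per class and library.

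The level of the Id genes differed more between cell types than between libraries. Id3 belonged to the stroma. It was highest in peribronchial-like fibroblasts, the cells around airways, with 1891 CPM in the navitoclax and 1836 CPM in the vehicle library, and in adventitial-like fibroblasts, which surround vessels and bronchi, with 1343 CPM (navitoclax) and 2169 CPM (vehicle). It was lowest in type II-like alveolar (AT2-like) cells, which make surfactant and renew the alveolus, with 31.0 CPM in the navitoclax and 44.0 CPM in the vehicle library. Neighbouring fibroblast classes overlapped between libraries, whereas every fibroblast value lay above every epithelial one.

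Id2 ran the other way among alveolar cells. AT2-like cells held 394 CPM in the navitoclax and 486 CPM in the vehicle library, while alveolar-like fibroblasts held 37.4 CPM (navitoclax) and 33.5 CPM (vehicle). Among fibroblasts it was highest in the adventitial-like class, at 299 CPM in the navitoclax and 335 CPM in the vehicle library. Id1 peaked in mesothelial-like cells, which cover the lung surface and were few (30 navitoclax and 61 vehicle cells), with 513 CPM in the navitoclax and 1236 CPM in the vehicle library. Ciliated-like airway cells came next for Id1, with 454 CPM (navitoclax) and 470 CPM (vehicle), and smooth muscle-like cells (38 navitoclax and 45 vehicle cells) had 209 CPM (navitoclax) and 329 CPM (vehicle). The 7 classes below these in the Id1 order overlapped one with the next, from alveolar-like fibroblasts to stromal cluster 11, and AT2-like and transitional-like cells were lowest. Id4 was a gene of smooth muscle-like cells, at 104 CPM in the navitoclax and 266 CPM in the vehicle library, followed by peribronchial-like fibroblasts with 65.1 CPM (navitoclax) and 58.1 CPM (vehicle).

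**Figure D1:**
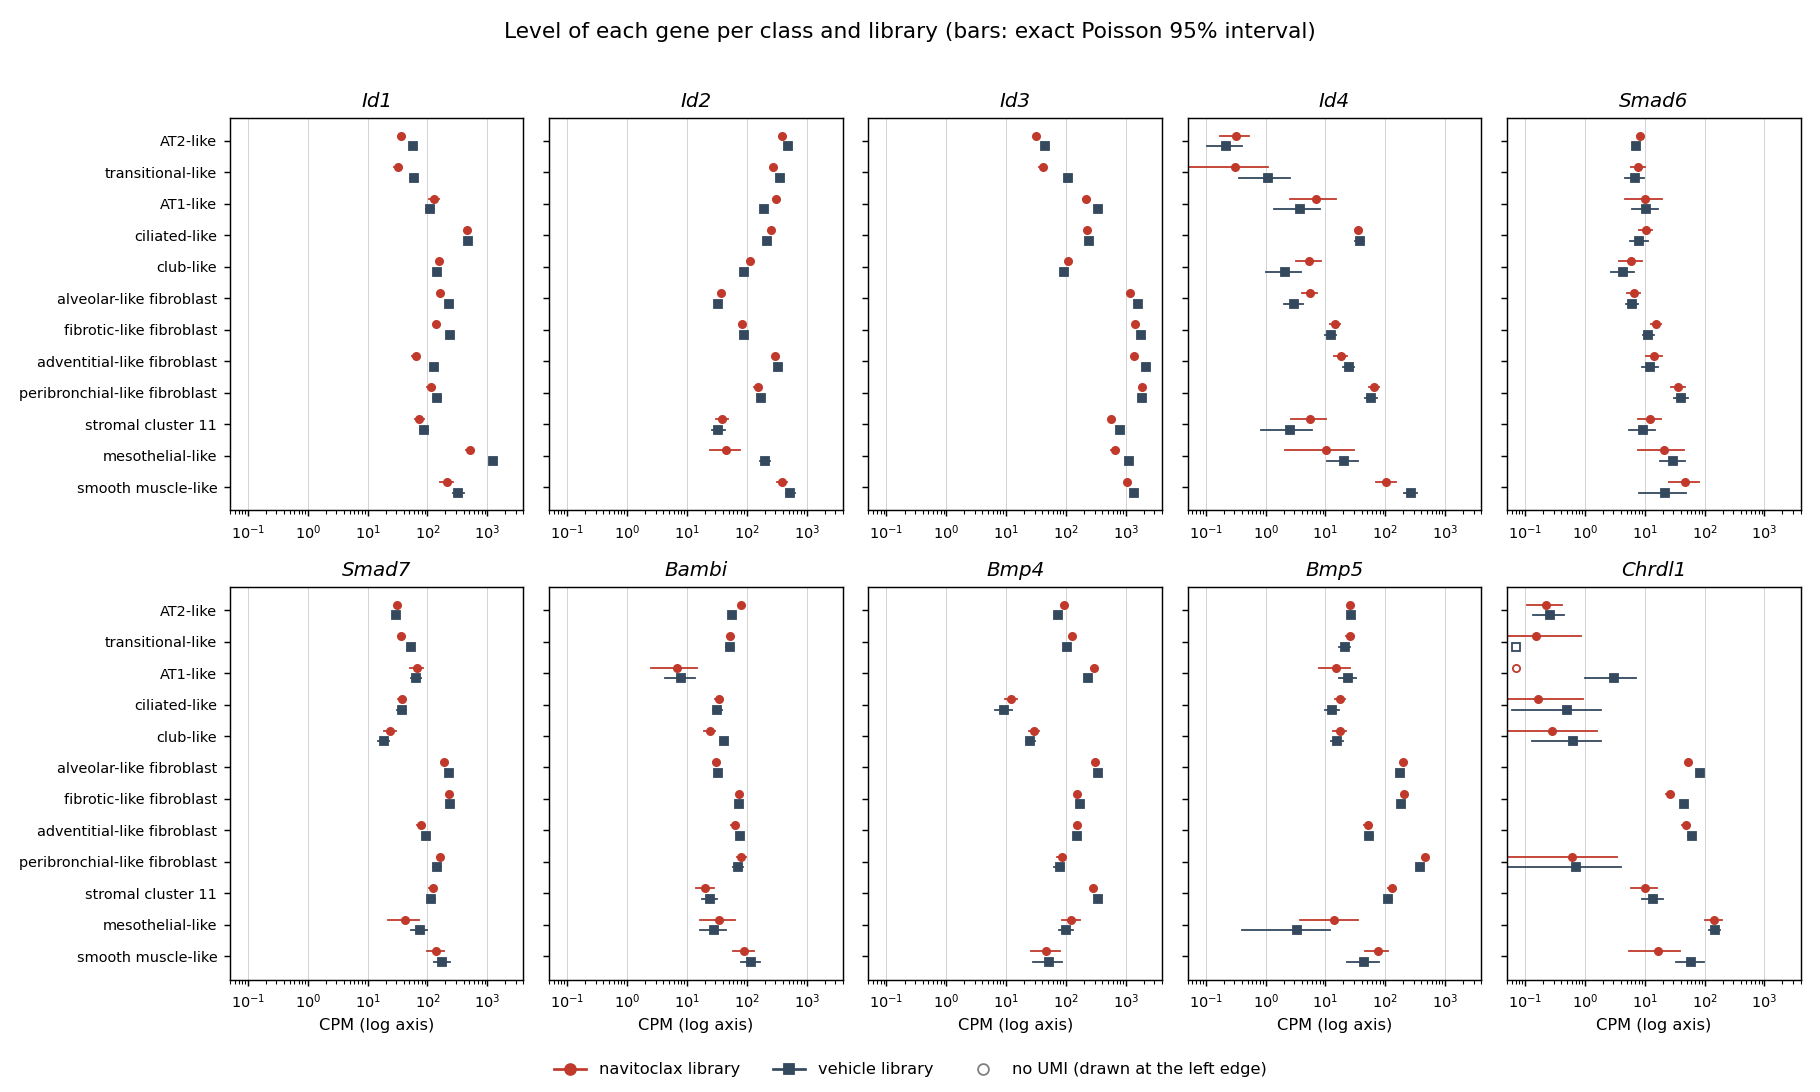
CPM of each of the 10 genes (log axis, a panel per gene) in the 12 classes, with the navitoclax library as red circles above the vehicle library as dark squares and exact Poisson 95% intervals that cover counting error only. Id3 lies far higher in fibroblasts than in epithelium. Bmp5 also lies higher in each fibroblast class than in epithelium, least so in the adventitial-like class. Chrdl1 is near 0 in the epithelial classes and in peribronchial-like fibroblasts. The red Id1 and Id3 points sit left of the dark ones in most classes.

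The ligands came from different cells. Bmp4 was highest in alveolar-like fibroblasts, at 306 CPM in the navitoclax and 339 CPM in the vehicle library, and in stromal cluster 11, at 281 CPM (navitoclax) and 336 CPM (vehicle). Type I-like alveolar (AT1-like) cells, across which gas exchange takes place, were the epithelial class with the most Bmp4, with 294 CPM in the navitoclax and 234 CPM in the vehicle library. Bmp5 was highest in peribronchial-like fibroblasts, with 452 CPM (navitoclax) and 376 CPM (vehicle), and did not exceed 27.1 CPM in any epithelial class of either library. Chrdl1 (chordin-like 1) binds BMPs and keeps them from their receptors. It was found in mesothelial-like cells at 142 CPM in the navitoclax and 148 CPM in the vehicle library, then in alveolar-like and adventitial-like fibroblasts. Peribronchial-like fibroblasts held only 1 Chrdl1 UMI in each library. AT2-like cells held 10 Chrdl1 UMIs in the navitoclax and 12 in the vehicle library, 0.419% (navitoclax) and 0.314% (vehicle) of the level in alveolar-like fibroblasts, which is near the 0.368% (navitoclax) and 0.357% (vehicle) at which a list of 8 fibroblast genes appeared there, so this was read as background. Id3 in AT2-like cells stood at 2.68% (navitoclax) and 2.75% (vehicle) of the alveolar-like fibroblast level by the same measure, above that background.

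Smad7, which blocks receptor signalling of both the BMP and the TGFβ branch, was highest in fibrotic-like fibroblasts, with 225 CPM in the navitoclax and 242 CPM in the vehicle library, and lowest in club-like airway cells, with 23.6 CPM (navitoclax) and 18.8 CPM (vehicle). Smad6, the inhibitor more selective for the BMP branch, was low throughout. In the 10 larger classes it was highest in peribronchial-like fibroblasts, with 36.5 CPM in the navitoclax and 40.4 CPM in the vehicle library. Bambi, a receptor-like protein without a kinase domain, was spread over both compartments, from 6.85 CPM (navitoclax) and 8.02 CPM (vehicle) in AT1-like cells to 90.9 CPM (navitoclax) and 118 CPM (vehicle) in smooth muscle-like cells.

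Promoter windows show which of the genes carry short SMAD-binding sequences near their start. In the RefSeq promoter table (GRCm38.p6) 6 of the 10 genes were found, Id2, Id3, Id4, Smad6, Bmp4 and Bmp5. The 250 bases before the start were searched on both strands for GGCGCC, a GC-rich element bound by SMAD1 and SMAD5, and for CAGAC, the SMAD box, which reads GTCTG on the other strand. The windows of Id2 and Id4 held GGCGCC, 231 and 148 bases before the RefSeq start, as did 9.59% of 32851 promoters. The windows of Id3 and Bmp5 held CAGAC or GTCTG, at 167 and 68 bases and at 134 bases, as did 42.2% of promoters. The Id2 and Id3 windows lay inside these genes as annotated in GENCODE, with 161 (Id2) and 250 (Id3) bases in annotated exons. Their matches are thus not before the GENCODE start. Smad6 and Bmp4 held neither in this window. A match is a description of letters and not a site of binding, and both motifs were found without overlap. The windows of Id4, the smooth muscle-like gene, and of Bmp5, the ligand of peribronchial-like fibroblasts, are shown because they hold a match and overlap the annotated exons by 0 bases (Id4) and 1 base (Bmp5), 5′ to 3′ with the match in capitals.
Id4, chr13:48260866-48261115, plus strand: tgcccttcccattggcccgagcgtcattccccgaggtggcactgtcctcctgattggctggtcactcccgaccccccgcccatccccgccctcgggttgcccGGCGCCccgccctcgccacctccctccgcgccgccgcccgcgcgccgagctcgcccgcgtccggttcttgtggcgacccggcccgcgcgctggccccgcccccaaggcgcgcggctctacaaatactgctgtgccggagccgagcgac
Bmp5, chr9:75775115-75775364, plus strand: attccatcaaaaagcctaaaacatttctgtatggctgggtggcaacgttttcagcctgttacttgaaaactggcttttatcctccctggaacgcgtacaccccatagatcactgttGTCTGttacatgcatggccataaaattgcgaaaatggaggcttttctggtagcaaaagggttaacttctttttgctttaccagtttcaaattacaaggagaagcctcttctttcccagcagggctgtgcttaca

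Ratios of the navitoclax over the vehicle library were taken in the 10 classes with at least 50 cells in each library, which made 100 gene and class pairs. At least 50 UMIs over both libraries were present in 84 pairs. Id1, Id2, Id3, Smad7, Bmp4 and Bmp5 met this in all 10 classes, Bambi in 9, Smad6 in 7, Id4 in 5 and Chrdl1 in 3. At least 1.5-fold differences were found in 11 pairs lower and 2 pairs higher in the navitoclax library. Over all genes and classes the same rule took 2.66% of 88677 gene and class pairs as lower and 3.65% as higher, and nothing is read from the contrast with these shares, since the genes were chosen with such values in view. Id1 made up 4 of the 11 lower pairs, Id3 made up 3, Chrdl1 2, and Bambi and Bmp5 1 each. By class, 1 of 8 pairs was lower in AT2-like cells, beside 1.22% of all genes there, 2 of 8 in transitional-like cells, beside 1.96%, 2 of 6 in AT1-like cells, beside 8.9%, and 1 of 7 in club-like cells, beside 1.48%. Alveolar-like fibroblasts had 1 of 10 lower, beside 1.72%, and fibrotic-like and adventitial-like fibroblasts 2 of 10 each, beside 2.08% and 3.49%. The 2 higher pairs were in AT1-like cells, beside 3.88% of all genes, and in alveolar-like fibroblasts, beside 2.86%. Ciliated-like cells, peribronchial-like fibroblasts and stromal cluster 11 had none in either direction. Of all genes, 3.38% were higher and 1.76% lower in ciliated-like cells, 3.85% higher and 4.29% lower in peribronchial-like fibroblasts, and 4.51% higher and 2.94% lower in cluster 11. Club-like cells had no higher pair, beside 11.1% of all genes. The median over the 84 pairs was a log2 ratio of -0.01, and 41 ratios were above 1 and 43 below. The median over all genes of a class lay between -0.06 and 0.03 on the log2 scale in 9 classes. It was 0.18 in club-like cells, whose ratios are to be read relative to that shift.

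**Figure D2:**
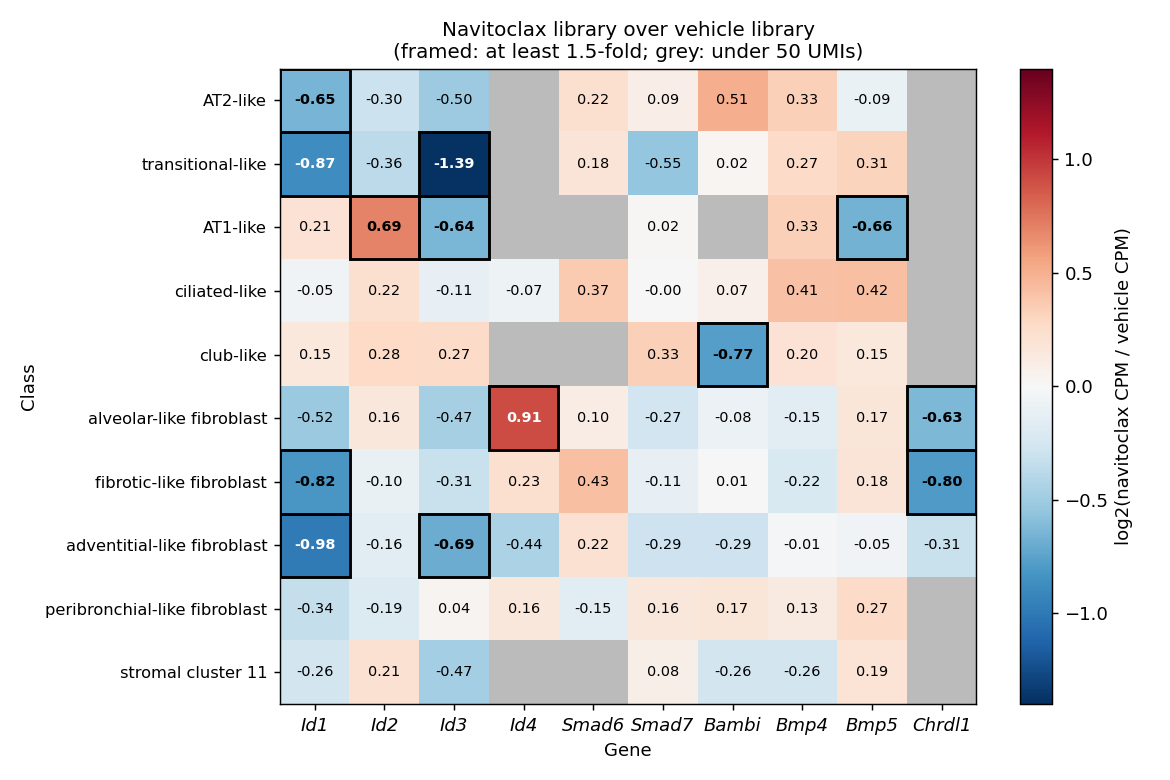
Log2 ratio of navitoclax CPM over vehicle CPM for each gene (columns) in each class (rows), blue where the navitoclax library was lower and red where it was higher, with pairs of at least 1.5-fold framed and pairs under 50 UMIs in grey. The Id1 and Id3 columns are mostly blue, the Chrdl1 column is grey but for 3 blue pairs, and the Smad6 and Bmp5 columns are mostly pale red.

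Id1, the inhibitor of differentiation most often used as a readout of BMP signalling, was lower in the navitoclax library in fibroblasts and in AT2-like and transitional-like cells. Adventitial-like fibroblasts had 214 UMIs or 64.1 CPM (95% interval 55.8 to 73.3, counting error only, as for all intervals here) in the navitoclax and 431 UMIs or 127 CPM (115 to 139) in the vehicle library, 1.98-fold lower (1.68 to 2.34). Fibrotic-like fibroblasts had 138 CPM (129 to 146) in the navitoclax and 242 CPM (231 to 253) in the vehicle library, 1.76-fold lower. Both of these passed 1.5-fold under every alternative of clustering, filter and scaling that was run. Alveolar-like fibroblasts, the largest stromal class, fell just outside the fold limit, with 162 CPM (154 to 171) in the navitoclax and 232 CPM (223 to 242) in the vehicle library, 1.43-fold lower (1.34 to 1.53).

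In the epithelium Id1 differed by cell type. AT2-like cells had 36.7 CPM in the navitoclax and 57.8 CPM in the vehicle library, 1.57-fold lower (1.48 to 1.67). The largest AT2-like cluster was cluster 1 in the navitoclax library (996 cells) and cluster 0 in the vehicle library (1159 cells), and the ratio was 0.614 within cluster 1, 0.689 within cluster 0 and 0.808 within cluster 9, a cluster led by mitochondrial genes. Transitional-like cells, a state between type II and type I cells that appears after injury, had 211 UMIs or 32.3 CPM in the navitoclax and 265 UMIs or 58.9 CPM in the vehicle library, 1.83-fold lower (1.52 to 2.20). A single vehicle cell held 44 of those 265 UMIs, and the log2 ratio was -0.72 without the top cell of each library, against -0.87 with it. When each cell was classified alone by its markers, without clusters, the log2 ratio in transitional-like cells was -0.06. Airway cells and AT1-like cells did not show the lower level at the main settings. The ratio was 0.965 (0.910 to 1.02) in ciliated-like and 1.11 in club-like cells, each with an interval that included 1. It was 1.15 (0.905 to 1.47) in AT1-like cells, where 30 of the 113 navitoclax UMIs came from 1 cell. Over the alternatives run, the log2 ratio lay between -0.61 and 0.71 in club-like and between -0.59 and 0.70 in AT1-like cells. The direction in these 2 classes was thus not stable.

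The 2 small classes, for which no ratio was formed, had a lower Id1 level in the navitoclax library as well. Their Poisson intervals did not overlap in mesothelial-like cells, at 513 CPM (434 to 602) in the navitoclax and 1236 CPM (1149 to 1329) in the vehicle library. They did overlap in smooth muscle-like cells, with 209 CPM (160 to 268) in the navitoclax and 329 CPM (264 to 404) in the vehicle library.

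Id3 followed a similar course. Adventitial-like fibroblasts had 4484 UMIs or 1343 CPM (1304 to 1383) in the navitoclax and 7371 UMIs or 2169 CPM (2120 to 2219) in the vehicle library, 1.62-fold lower (1.56 to 1.68), and this held at 1.5-fold or more under all alternatives run. Alveolar-like fibroblasts had 1158 CPM in the navitoclax and 1601 CPM in the vehicle library, a ratio of 0.723 (0.706 to 0.741). Fibrotic-like fibroblasts had 1441 CPM (navitoclax) and 1782 CPM (vehicle), a ratio of 0.808 (0.788 to 0.829), and stromal cluster 11 had 569 CPM (navitoclax) and 789 CPM (vehicle), a ratio of 0.721 (0.665 to 0.781). Peribronchial-like fibroblasts, the class with the highest level, stood apart with a ratio of 1.03 (0.977 to 1.09).

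Transitional-like cells showed the lowest ratio of all 84 pairs for Id3, with 266 UMIs or 40.7 CPM (35.9 to 45.9) in the navitoclax and 478 UMIs or 106 CPM (96.9 to 116) in the vehicle library, 2.61-fold lower (2.24 to 3.05). The log2 ratio was -1.39, and -0.25 when each cell was classified alone. The fibroblast list summed to 59.2 CPM in navitoclax and 80.5 CPM in vehicle transitional-like cells, and its part in the Id3 difference was not tested. AT2-like cells had 31.0 CPM (navitoclax) and 44.0 CPM (vehicle), a ratio of 0.705 (0.658 to 0.755). In AT1-like cells Id3 was 219 CPM in the navitoclax and 341 CPM in the vehicle library, 1.55-fold lower (1.32 to 1.84). Here the libraries also differed in markers of other cells: the fibroblast list stood at 89.0 CPM in the navitoclax and 241 CPM in the vehicle library, and the type II list at 115126 CPM in the navitoclax and 71199 CPM in the vehicle library. The part of these in the AT1-like values was not tested, and the Id3 log2 ratio was 0.046 when cells were thinned to 2000 UMIs each. Ciliated-like cells had a ratio of 0.924 (0.849 to 1.01). Club-like cells had 1.20 (1.05 to 1.39), or 0.27 on the log2 scale against 0.18 for all genes of that class. The club-like log2 ratio lay between -0.87 and 1.01 over the alternatives run, so its direction was not stable.

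Immediate-early and heat shock genes, which respond to tissue dissociation, also differed between the libraries. Of 17 such genes, 13 were below a ratio of 1 in alveolar-like fibroblasts, with a median log2 ratio of -0.26, and 13 in stromal cluster 11, with a median of -0.13. The median was -0.11 in transitional-like cells, -0.09 in AT2-like cells, -0.07 in adventitial-like and -0.02 in peribronchial-like fibroblasts. It was 0.16 in fibrotic-like fibroblasts, where 14 were above 1, and 0.13 in ciliated-like cells, where 13 were. Their part in the Id1 and Id3 values was not tested.

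Id2 and Id4 shared the pattern of Id1 and Id3 only in part. Of the 10 Id2 ratios 5 were below and 5 above 1, with the interval below 1 in 3 classes and above 1 in 3. Id2 was 394 CPM (388 to 400) in the navitoclax and 486 CPM (480 to 493) in the vehicle library in AT2-like cells, a ratio of 0.810 (0.794 to 0.826), and 0.777 (0.726 to 0.832) in transitional-like cells. In AT1-like cells it was higher, with 310 CPM (275 to 349) in the navitoclax and 192 CPM (172 to 215) in the vehicle library, a ratio of 1.61 (1.37 to 1.90). That ratio rested on 69 navitoclax and 149 vehicle cells and turned to a log2 value of -0.10 with a mitochondrial limit of 10%. At that limit the AT1-like class was a different set of 214 navitoclax and 257 vehicle cells. In the 4 named fibroblast classes the Id2 ratio lay between 0.879 in peribronchial-like and 1.12 in alveolar-like cells. It was 0.893 (0.820 to 0.973) in adventitial-like fibroblasts. Mesothelial-like cells, for which no ratio was formed, held 13 navitoclax Id2 UMIs or 45.0 CPM and 120 vehicle UMIs or 201 CPM. Id4 was 1.88-fold higher (1.18 to 3.02) in alveolar-like fibroblasts on 51 navitoclax and 32 vehicle UMIs, or 5.51 CPM (navitoclax) and 2.94 CPM (vehicle), and the log2 ratio of 0.91 became 0.48 with doublets kept and 0.24 with each cell classified alone. Among classes with a ratio, the interval included 1 where Id4 was better expressed. The Id4 ratio was 1.12 (0.832 to 1.51) in peribronchial-like fibroblasts and 0.953 (0.768 to 1.18) in ciliated-like cells. It was 0.736 (0.519 to 1.04) in adventitial-like fibroblasts. Smooth muscle-like cells, the class with the most Id4, had no ratio. They held 31 navitoclax UMIs or 104 CPM and 72 vehicle UMIs or 266 CPM.

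The inhibitory SMADs, which are themselves BMP targets, were split. Smad6 was above a ratio of 1 in 6 of the 7 classes with enough UMIs, and the interval lay above 1 in 2 of them. AT2-like cells had 8.29 CPM in the navitoclax and 7.11 CPM in the vehicle library. Fibrotic-like fibroblasts had 15.5 CPM (12.7 to 18.6) in the navitoclax and 11.5 CPM (9.29 to 14.2) in the vehicle library. Of the 10 Smad7 ratios 5 were below and 5 above 1, with the interval below 1 in 4 classes and above 1 in 0. Smad7 was below 1 in transitional-like cells, with 36.2 CPM (31.8 to 41.2) in the navitoclax and 52.9 CPM (46.4 to 60.1) in the vehicle library, a ratio of 0.685 (0.570 to 0.824). It was 192 CPM (navitoclax) and 231 CPM (vehicle) in alveolar-like fibroblasts, a ratio of 0.828 (0.779 to 0.880). The Smad7 ratio was 0.817 (0.690 to 0.966) in adventitial-like and 0.926 (0.866 to 0.990) in fibrotic-like fibroblasts. Smad7 was close to equal in AT2-like cells with 31.1 CPM (navitoclax) and 29.3 CPM (vehicle). No Smad6 or Smad7 ratio reached 1.5-fold in either direction.

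Bambi went opposite ways in the 2 secretory epithelial classes. AT2-like cells had 3544 UMIs or 79.6 CPM (77.0 to 82.3) in the navitoclax and 2587 UMIs or 56.0 CPM (53.9 to 58.2) in the vehicle library, a ratio of 1.42 (1.35 to 1.49). The 3 largest AT2-like clusters gave 1.49, 1.36 and 1.46. Club-like cells had 84 UMIs or 23.9 CPM (19.1 to 29.6) in the navitoclax and 196 UMIs or 40.9 CPM (35.3 to 47.0) in the vehicle library, 1.71-fold lower (1.32 to 2.24). The log2 ratio of -0.77 in club-like cells became -0.22 with doublets kept and 0.17 at a coarser clustering. The class held 86 navitoclax and 107 vehicle cells here. With doublets kept it held 159 (navitoclax) and 147 (vehicle), and at the coarser clustering 155 (navitoclax) and 230 (vehicle). In fibrotic-like fibroblasts Bambi was 75.5 CPM (navitoclax) and 75.0 CPM (vehicle).

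The ligands differed by less than 1.5-fold in all but 1 pair, and Bmp4 varied in direction between classes. It was higher in AT2-like cells, with 92.1 CPM (89.3 to 94.9) in the navitoclax and 73.0 CPM (70.5 to 75.5) in the vehicle library, a ratio of 1.26 (1.20 to 1.32), with 1.20 (1.07 to 1.35) in transitional-like and 1.26 (1.07 to 1.48) in AT1-like cells. It was below 1 in alveolar-like fibroblasts at 0.900 (0.857 to 0.946), in fibrotic-like fibroblasts at 0.860 (0.793 to 0.932) and in stromal cluster 11 at 0.834 (0.741 to 0.939). The interval included 1 in adventitial-like fibroblasts at 0.992 (0.875 to 1.12) and in peribronchial-like fibroblasts at 1.09 (0.845 to 1.41). Bmp5 was above 1 in 7 of 10 classes. In its main source, peribronchial-like fibroblasts, it had 452 CPM (420 to 486) in the navitoclax and 376 CPM (344 to 409) in the vehicle library, a ratio of 1.20 (1.08 to 1.35). The 1 pair past 1.5-fold was Bmp5 in AT1-like cells, on 13 navitoclax and 38 vehicle UMIs, with an interval of the ratio from 0.309 to 1.21.

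Chrdl1, the only antagonist of the set, was lower in the navitoclax library in each of the 3 classes with enough UMIs. Alveolar-like fibroblasts had 496 UMIs or 53.6 CPM (49.0 to 58.6) in the navitoclax and 902 UMIs or 82.8 CPM (77.5 to 88.4) in the vehicle library, 1.54-fold lower (1.38 to 1.73). Fibrotic-like fibroblasts had 26.4 CPM (22.7 to 30.4) in the navitoclax and 45.8 CPM (41.2 to 50.7) in the vehicle library, 1.74-fold lower (1.45 to 2.08). Adventitial-like fibroblasts had 49.4 CPM (navitoclax) and 61.2 CPM (vehicle), 1.24-fold lower (1.01 to 1.53). These sizes depended on how cells were classed and scaled: in fibrotic-like fibroblasts the log2 ratio of -0.80 became -0.41 with a mitochondrial limit of 10% and -0.14 with each cell classified alone, and in alveolar-like fibroblasts -0.63 became -0.27 with cells thinned to 2000 UMIs. The direction was the same under all alternatives run. In mesothelial-like cells Chrdl1 was 142 CPM (102 to 193) in the navitoclax and 148 CPM (118 to 182) in the vehicle library.

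Clusters were then taken singly, since classes can hold clusters in different proportions. Clusters 3, 5, 7, 8, 10 and 11 were each a whole class, so their values repeat the class ratios above. Only clusters 0, 1, 2, 4 and 9 were parts of a class, with Id1 ratios from 0.614 to 0.808. AT1-like and club-like cells, where Id1 was above a ratio of 1, had no cluster of at least 100 cells in each library. In the 11 clusters with at least 100 cells in each library, Id1 was below a ratio of 1 in 11, from 0.505 to 0.965, and the interval lay below 1 in 8. Id3 was below 1 in 10, with the interval below 1 in 9, and was at 1.03 in the peribronchial-like cluster. Chrdl1 was below 1 in all 4 clusters with enough UMIs, from 0.576 to 0.807. Bmp5 was below 1 in 4 of 11, with the interval above 1 in 4 and below 1 in none. The 2 alveolar-like fibroblast clusters gave nearly the same values for Id1, with 0.684 (0.623 to 0.750) in cluster 2, led by Slc7a10, Wnt2 and Tcf21, and 0.700 (0.636 to 0.771) in cluster 4, led by Tnc, Col13a1 and Ctgf. Chrdl1 differed more between them, with 0.640 (0.552 to 0.740) in cluster 2 and 0.764 (0.633 to 0.922) in cluster 4.

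**Figure D3:**
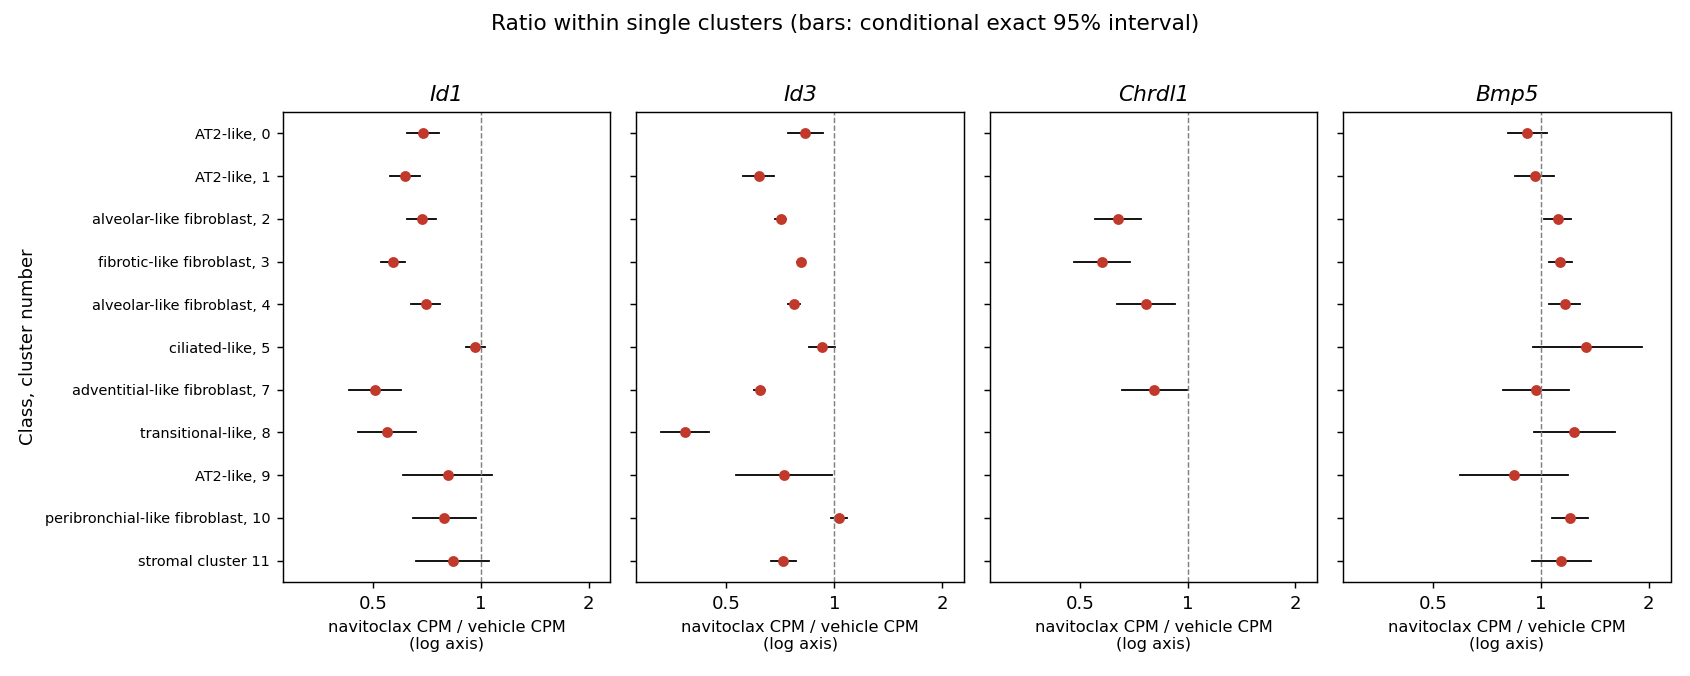
Ratio of navitoclax CPM over vehicle CPM (log axis) within each cluster of at least 100 cells per library for Id1, Id3, Chrdl1 and Bmp5, with conditional exact 95% intervals and a dashed line at 1, and with pairs under 50 UMIs not drawn. Id1 points lie left of the line in all 11 clusters, Id3 points in 10 and Chrdl1 points in all 4 drawn. Bmp5 points lie on both sides. Clusters 3, 5, 7, 8, 10 and 11 are whole classes.

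The share of cells with a UMI was compared after each cell was thinned to 2000 UMIs, because median depth differed between libraries and classes. Id1 was seen in 5.13% (4.24 to 6.15) of 2143 navitoclax and 9.69% (8.55 to 10.9) of 2488 vehicle AT2-like cells, a difference of -4.55 percentage points (-6.05 to -3.05). Without thinning, the shares were 33.9% in the navitoclax library, at a median depth of 19759 UMIs, and 38.7% in the vehicle library, at 18045 UMIs. Fibrotic-like fibroblasts gave 20.1% (17.0 to 23.5) in the navitoclax and 29.4% (26.3 to 32.7) in the vehicle library, a difference of -9.36 points (-13.8 to -4.83). Adventitial-like fibroblasts gave 9.30% in the navitoclax and 17.0% in the vehicle library, a difference of -7.69 points (-12.8 to -2.48). In these classes fewer cells had an Id1 UMI in the navitoclax library, and the top AT2-like cell held 45 of 1635 navitoclax and 30 of 2667 vehicle UMIs. In ciliated-like cells the share of Id1-positive cells was higher, with 34.3% (29.8 to 39.0) in the navitoclax and 27.5% (23.0 to 32.3) in the vehicle library, although the level was 454 CPM (navitoclax) and 470 CPM (vehicle), so no order is read from this share.

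Id3 was present in most fibroblasts of both libraries. Alveolar-like fibroblasts with an Id3 UMI made up 74.3% (71.5 to 76.9) in the navitoclax and 81.8% (79.7 to 83.8) in the vehicle library, a difference of -7.51 points (-10.8 to -4.21). Transitional-like cells with an Id3 UMI made up 6.95% (4.46 to 10.2) in the navitoclax and 16.9% (12.6 to 21.9) in the vehicle library, and the difference was -9.91 points (-15.4 to -4.73). Id2 was found in 50.1% (48.0 to 52.3) of navitoclax and 58.0% (56.0 to 59.9) of vehicle AT2-like cells. Chrdl1 was found in 11.7% (9.86 to 13.8) of navitoclax and 13.6% (11.9 to 15.5) of vehicle alveolar-like fibroblasts, a difference of -1.89 points whose interval included 0 (-4.51 to 0.788), and in 0.0933% of navitoclax and 0.121% of vehicle AT2-like cells.

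**Figure D4:**
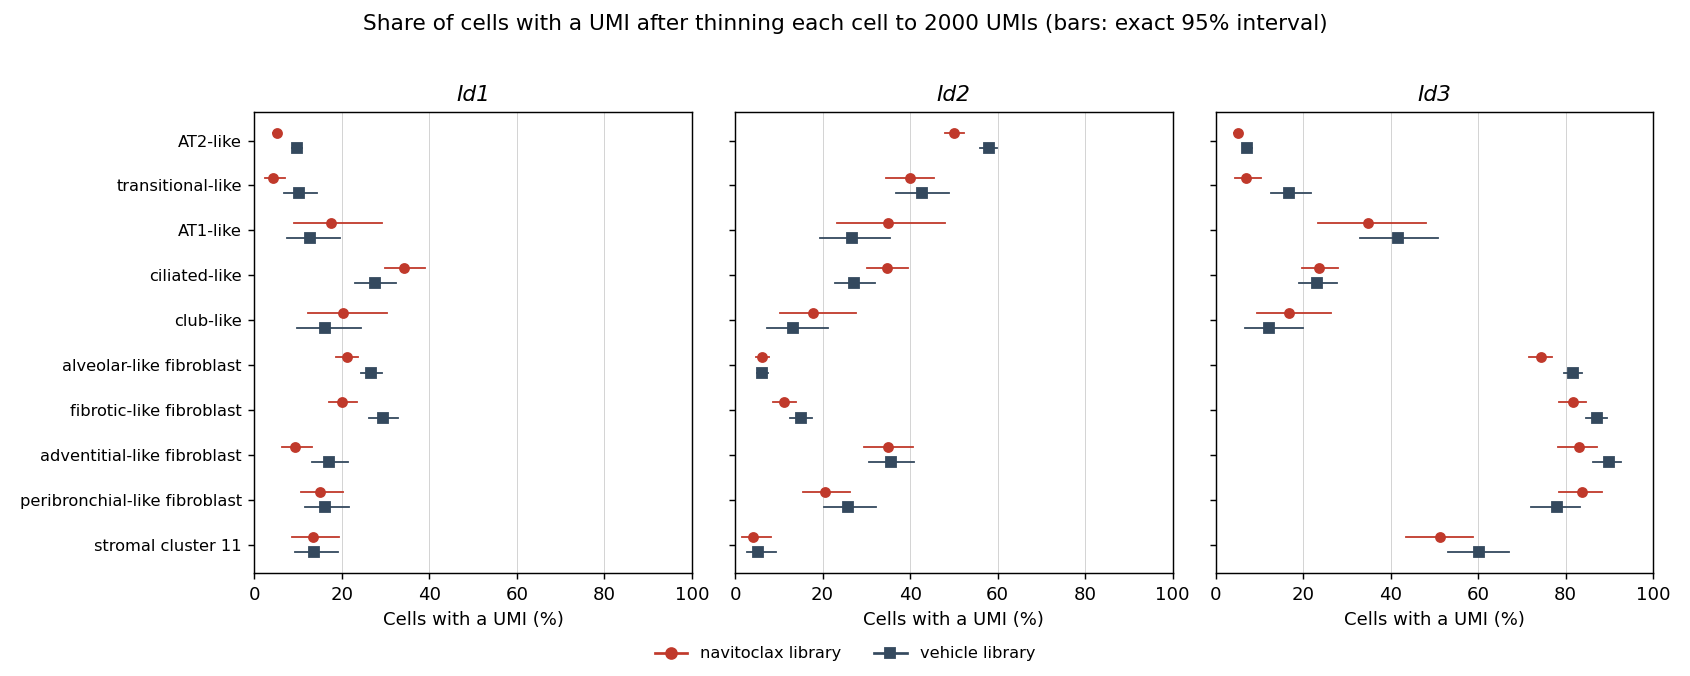
Percentage of cells with at least 1 UMI of Id1, Id2 or Id3 in the 10 larger classes after thinning each cell to 2000 UMIs, with the navitoclax library as red circles above the vehicle library as dark squares and exact Clopper-Pearson 95% intervals. Id3 is found in most fibroblasts and few AT2-like cells. Id2 is found in a larger share of AT2-like cells than of any fibroblast class. The navitoclax shares of Id1 and Id3 lie left of the vehicle ones in AT2-like, transitional-like, alveolar-like, fibrotic-like and adventitial-like cells.

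In both libraries, cells with an Id1 UMI more often had an Id3 UMI in every larger class but adventitial-like fibroblasts. Some of these classes had few Id1-positive cells, such as 11 navitoclax and 16 vehicle AT1-like cells. Among thinned AT2-like cells an Id3 UMI was found in 16.4% of 110 Id1-positive and 4.38% of 2033 Id1-negative navitoclax cells, and in 18.3% of 241 Id1-positive and 6.01% of 2247 Id1-negative vehicle cells. Among ciliated-like cells the shares were 45.9% of 146 Id1-positive and 12.1% of 280 Id1-negative navitoclax cells, and 55.9% of 102 Id1-positive and 10.8% of 269 Id1-negative vehicle cells. Adventitial-like fibroblasts did not show this in the navitoclax library, where 82.1% of 28 Id1-positive and 83.2% of 273 Id1-negative cells had an Id3 UMI, against 98.3% of 60 Id1-positive and 88.1% of 293 Id1-negative cells in the vehicle library. Cells of 1 library are not replicates, and these shares describe the 2 libraries only.

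Among the other genes of the pathway, few receptors and SMADs passed 1.5-fold. Of a wider list of 63 ligands, receptors, SMADs, antagonists, ligases, targets and E protein partners, 32 had enough UMIs in AT2-like cells, with 0 at least 1.5-fold higher and 1 lower, beside 1.68% higher and 1.22% lower of all genes there. Transitional-like cells had 28, with 0 higher and 2 lower, beside 2.75% and 1.96%. Fibrotic-like fibroblasts had 42, with 1 higher and 4 lower, beside 2.35% and 2.08%. Alveolar-like fibroblasts had 41, with 2 higher and 1 lower, beside 2.86% and 1.72%, and adventitial-like fibroblasts had 35, with 0 higher and 1 lower, beside 2.88% and 3.49%. Peribronchial-like fibroblasts and stromal cluster 11 had 32 each, with 4 higher and 2 lower in peribronchial-like cells, beside 3.85% and 4.29%, and 2 higher and 3 lower in cluster 11, beside 4.51% and 2.94%. Ciliated-like cells had 26, with none past the fold. The type I receptor Bmpr1a was 101.1 CPM (navitoclax) and 100.9 CPM (vehicle) in alveolar-like fibroblasts, a ratio of 1.00 (0.917 to 1.09), and 44.9 CPM (navitoclax) and 48.1 CPM (vehicle) in AT2-like cells, a ratio of 0.934 (0.879 to 0.993). The type II receptor Bmpr2 had a ratio of 0.992 (0.916 to 1.07) in alveolar-like fibroblasts and 0.957 (0.905 to 1.01) in AT2-like cells. Smad1, which carries the BMP signal, was 48.0 CPM (navitoclax) and 47.8 CPM (vehicle) in alveolar-like fibroblasts and 26.9 CPM (navitoclax) and 26.3 CPM (vehicle) in AT2-like cells.

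The gene of the wider list most often past 1.5-fold was Hes1, a repressor best known as a Notch target and also induced by BMP. It was at least 1.5-fold lower in the navitoclax library in 6 of the 8 classes with at least 100 cells in each library, and the ratio was 0.747 (0.711 to 0.785) in ciliated-like cells and 1.22 (1.02 to 1.46) in peribronchial-like fibroblasts. Alveolar-like fibroblasts had 2169 UMIs or 235 CPM in the navitoclax and 6281 UMIs or 577 CPM in the vehicle library, 2.46-fold lower (2.34 to 2.58), and AT2-like cells had 74.3 CPM (navitoclax) and 115 CPM (vehicle), 1.55-fold lower (1.49 to 1.62). The BMP antagonist Grem1 was 19.8-fold lower (8.87 to 55.0) in fibrotic-like fibroblasts, but its 6 navitoclax UMIs lay in 2 cells and its 131 vehicle UMIs in 9, of which 1 cell held 50. The target Msx1 was higher in fibrotic-like fibroblasts on 53 navitoclax and 22 vehicle UMIs and lower in peribronchial-like fibroblasts on 12 navitoclax and 40 vehicle UMIs. With up to 4 named a class by size of the ratio, the other genes past the fold were Gdf10 and Bmp8a, higher in alveolar-like fibroblasts, Smad9, lower in fibrotic-like fibroblasts on 22 navitoclax and 38 vehicle UMIs, Nbl1, lower in transitional-like cells, Gdf10 and Atoh8, higher, and Bmp3, lower, in peribronchial-like fibroblasts, and Rgmb and Tob1, higher, and Chrd, lower, in stromal cluster 11. By level, the leading genes of the wider groups were the ligand Bmp3 in alveolar-like fibroblasts (256 CPM in the navitoclax and 266 CPM in the vehicle library), the antagonist Nbl1 in stromal cluster 11 (navitoclax 2712 CPM, vehicle 2831 CPM), the TGFβ feedback gene Pmepa1 in fibrotic-like fibroblasts (navitoclax 955 CPM, vehicle 1085 CPM) and the E protein Tcf4 in alveolar-like fibroblasts (navitoclax 584 CPM, vehicle 628 CPM).

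Across the 24 profiles (12 classes in 2 libraries) each gene was set beside all genes that reached 50 CPM somewhere. On log2(CPM + 5), Id1 ran most like Crim1, with r = 0.88, a transmembrane protein that binds BMPs, followed by Stx16 and Haghl. Id3 ran most like Sdc2 (r = 0.94), Ctsf and Birc2, Smad7 like Zfp639 (r = 0.95), Dguok and Izumo4, and Bmp5 like Ptger2 (r = 0.93), Igfbp3 and Pth1r. Chrdl1 ran most like Gpsm3 (r = 0.93), Fibin and Rras2, Bmp4 like S1pr2 (r = 0.91), Lrrk1 and Phactr1, Id4 like Map1b (r = 0.88), St5 and Pcgf5, and Smad6 like Fgf18 (r = 0.88), Pcdh7 and Adam33. Id2 followed Ramp1 (r = 0.80), Rassf3 and Tuba1c less closely, and Bambi followed Adgrl1 (r = 0.69), Nfil3 and Naa10 least. Within the set, Id3 and Smad7 ran together (r = 0.84), as did Smad7 and Bmp5 (r = 0.80) and Id4 and Smad6 (r = 0.75), whereas Id1 and Id3 had r = 0.44 and Id2 and Id3 r = -0.33. The profiles share 2 libraries and their classes share cells of 1 lung preparation each, so these values are descriptions.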

How the data were processed

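Lung cells of bleomycin-injured mice were profiled with a 10x Chromium 3′ kit, per the labels, in 1 navitoclax and 1 vehicle library. The deposited values are UMI counts per gene and barcode, without normalization, and the file headers name Cell Ranger 4.0.0, with build mm10 per the submitters' processing notes. Aligner settings, cell calling and mice per library: not given in the sources used here.

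Barcodes under 500 genes or over 15% mitochondrial UMIs were removed, and doublets were called per library with Scrublet at an expected rate of 6% (scanpy 1.11.5) and removed (217 navitoclax and 222 vehicle cells). Free RNA was not subtracted. Both libraries were clustered together (2000 variable genes without the 10 genes and the wider pathway list, 30 components, 15 neighbours, Leiden at resolution 1, leidenalg 0.10.2) and named from marker lists. A name needed 3 markers at 20 CPM and a score of 0.35. Of the kept cells, 639 navitoclax and 631 vehicle cells stayed unnamed, most of them in 2 stromal clusters of low depth (clusters 6 and 12). The scoring rule was set after the data were seen.

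Sums of UMIs over each class of a library were given as CPM with exact Poisson 95% intervals, the ratio with a conditional exact interval, shares with exact Clopper-Pearson and their difference with Newcombe intervals. All cover counting error only. PCR copies are merged by UMIs, but differences between mice and preparations are in none of the intervals. With 1 library per group no test was made. A pair was counted as different at 50 UMIs and 1.5-fold, a rule of size. The named genes were all 10 genes, for each the 3 genes of highest correlation, and from the wider list those past 1.5-fold, up to 4 a class. The ratio, its interval and the fold rule were checked on simulated counts with known folds. The genes and lists were chosen with earlier results of these data known. Alternatives changed the resolution, mitochondrial limit, doublet removal, naming by single cells, scaling, thinning, top cells and limits.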

Additional observations from a re-analysis of the deposited data

Results flagged for a closer look

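In 2 cases the navitoclax over vehicle ratio went opposite ways in related epithelial classes with intervals on either side of 1. Neither difference was tested, since each group had 1 library. Id2 had a log2 ratio of 0.69 in AT1-like cells and -0.36 in transitional-like cells. Bambi had a log2 ratio of 0.51 in AT2-like cells and -0.77 in club-like cells, where the median over all genes was 0.18.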

How the results depend on the processing

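No paired analysis was possible because each group had 1 library, and for the same reason no library could be left out. The count of pairs at least 1.5-fold lower, 11, became 7 at resolution 0.5, 7 with a mitochondrial limit of 30% and 7 with each cell classified alone. The count higher, 2, became 1 with a mitochondrial limit of 10%, 5 with cells thinned to 2000 UMIs, 1 without the top cell of each library, 6 without the minimum of 50 UMIs and 1 with a minimum of 200. At a fold limit of 5 to 4 the counts were 10 higher and 19 lower, and at a fold of 2 they were 0 and 1. No class was named transitional-like at resolution 0.5 or at mitochondrial limits of 10% and 30%, so its pairs are missing there. AT1-like cells fell under 50 in a library at resolution 2, at the limit of 30% and with each cell classified alone.

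The sign of a ratio turned in 4 of the pairs past 1.5-fold. Bambi in club-like cells had a log2 ratio of 0.17 at resolution 0.5, where the class held 155 navitoclax and 230 vehicle cells. With a mitochondrial limit of 10%, Id2 in AT1-like cells had -0.10 and Bmp5 in AT1-like cells 0.29. The AT1-like class then held 214 navitoclax and 257 vehicle cells. Id3 in AT1-like cells had 0.046 with cells thinned to 2000 UMIs. The sign also turned in pairs under 1.5-fold. Among them were Id1 in AT1-like cells (-0.59 to 0.70 over the alternatives) and 3 genes in club-like cells. These were Id1 (-0.61 to 0.71), Id3 (-0.87 to 1.01) and Bmp5 (-1.66 to 0.46). Share differences turned for Bmp4 in fibrotic-like fibroblasts (0.718 points), Id3 in adventitial-like fibroblasts (0.279 points) and Smad7 in stromal cluster 11 (2.93 points) without thinning, and for Bmp5 in fibrotic-like fibroblasts (-3.04 points) and Smad7 in stromal cluster 11 (1.04 points) at 4000 UMIs. The cause was not tested.

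Over all alternatives the Id1 log2 ratio lay between -1.08 and -0.73 in adventitial-like, -0.88 and -0.61 in fibrotic-like and -0.62 and -0.47 in alveolar-like fibroblasts, and between -0.96 and -0.31 in AT2-like cells, where it missed 1.5-fold at resolution 0.5 (-0.45) and within clusters 0 and 9. Counting the low-depth clusters 6 and 12 as alveolar-like fibroblasts could change only the 10 alveolar-like pairs. Leaving out cluster 9 could change only the 8 AT2-like pairs. Both alternatives were added after the data were seen, and neither moved any of those ratios beyond its interval.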

Other observations

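The low-depth stromal clusters 6 and 12, at medians of 2110 and 1595 UMIs per cell, belonged to no class of the comparison. Id1 was 32.6 CPM in the navitoclax and 59.7 CPM in the vehicle library in cluster 6, a ratio of 0.546 (0.336 to 0.875) on 31 navitoclax and 48 vehicle UMIs. In cluster 12 it was 81.6 CPM (navitoclax) and 181 CPM (vehicle), a ratio of 0.451 (0.270 to 0.730) on 24 navitoclax and 66 vehicle UMIs. Id3 had a ratio of 0.783 (0.657 to 0.933) in cluster 6 and 0.789 (0.687 to 0.906) in cluster 12. Bmp4 was 128 CPM (navitoclax) and 127 CPM (vehicle) in cluster 6.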
